A study of Mus musculus with 31 samples.

Results

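The type I interferon response genes are a set of 38 genes, matched by symbol, out of the 55401 genes in the deposited count tables. They were chosen by known function, as the receptor of the type I interferons, its transducers and genes that interferons are known to induce. The choice was made with earlier results of these data known, so their shares set against all genes are description and not a test of the list. By role they are 2 receptor subunits, 4 transducers or transcription factors, 6 nucleic acid sensors, 5 genes of the OAS family, 4 of the IFIT family, Isg15 with its protease gene Usp18, 9 other antiviral effectors and 6 other induced genes.

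The study asked how the PLCγ2-P522R variant, which was placed in the mouse gene by CRISPR/Cas9, changes microglia with and without amyloid pathology. All mice were 13 months old and on a C57BL/6J background. Mice marked A+ carried the APPswe/PS1dE9 transgenes, driven by the mouse prion protein promoter, and mice marked A- did not. Pki/ki mice carried the variant on both alleles and Pwt/wt mice on neither.

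RNA was sequenced from CD11b+ cells, taken from the brain with magnetic beads, and from temporo-occipital cortex. The CD11b+ libraries came from female A-/Pwt/wt (n = 7), A+/Pwt/wt (n = 4) and A+/Pki/ki mice (n = 4) and from male A-/Pwt/wt (n = 3, WT below) and A-/Pki/ki mice (n = 4, KI below). The cortex libraries came from female A-/Pwt/wt (n = 1), A+/Pwt/wt (n = 4) and A+/Pki/ki mice (n = 4). CD11b beads bind myeloid cells in general, so the isolates can hold border macrophages, monocytes and neutrophils beside microglia, and the transgene driven by the prion promoter is made mainly in neurons. Female A- and A+ CD11b+ libraries carry different tags (b3 and b2) at the end of their labels, and the males a further one (b1), with no word on what the tags mark.

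Type I interferons bind a receptor made of Ifnar1 and Ifnar2, and the signal reaches the nucleus through Stat2 and Irf9, which act at a short DNA element, the interferon-stimulated response element. The induced genes include sensors of foreign nucleic acid, enzymes and binding proteins that block viral RNA, and Irf7, which feeds back on interferon production. Microglia with raised levels of these genes are known from aged brain and from amyloid models.

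Of the 38 genes, 29 had RefSeq promoter sequence (GRCm38.p6), and the 250 bases before each start were searched on both strands for the core of the response element, GAAANNGAAA. The core was in 12 of these 29 genes (41.4%), against 936 of 27025 genes (3.46%) over the whole promoter table. Counted by start sites it was in 12 of 35 promoters (34.3%) and in 978 of 32851 (2.98%). The 4 windows shown are those of the genes with the core that passed the test in the most comparisons below and then had the highest level in A+/Pwt/wt microglia. They are written 5′ to 3′ on the strand of the gene, and capitals mark each match of the core on either strand.
Ifi207: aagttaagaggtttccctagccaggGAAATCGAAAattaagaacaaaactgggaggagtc
Trim30a: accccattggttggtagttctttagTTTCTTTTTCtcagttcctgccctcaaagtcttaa
Ifit3: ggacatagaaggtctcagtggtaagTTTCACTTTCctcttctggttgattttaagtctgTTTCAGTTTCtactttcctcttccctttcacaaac
Oas1a: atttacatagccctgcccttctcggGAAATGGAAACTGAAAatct
The Ifi207 window is chr1:173741816-173741875 on the minus strand and ends 7 bases before the start. That of Trim30a is chr7:104465195-104465254 on the minus strand, at 1 of its 2 listed starts. The Ifit3 window, with 2 copies, is chr19:34583348-34583441 on the plus strand. The Oas1a window is chr5:120907526-120907570 on the minus strand, and its 2 matches overlap. Isg15 held 3 overlapping matches. No match was in this window of Ifit2, Oasl2 or Ifi44, which rose in A+ microglia, and the search says nothing on elements further away or with other letters.

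The CD11b+ libraries held 16229831 to 25118180 counts and the cortex libraries 25226544 to 43129427. All 13 microglia markers were above 0 in every CD11b+ library, with a summed level of 15800 to 35000 CPM (the standard read count unit scaled to the total of a library). Markers of other cells were present too. Their summed levels in CD11b+ libraries ran from 166 to 4370 CPM for neurons and from 6920 to 77400 CPM for oligodendrocytes. A-/Pwt/wt mouse 223 (neuron markers 4370 CPM) and A+/Pki/ki mouse 335 (neuron markers 2100 CPM and neutrophil markers 1380 CPM) stood apart from their groups, and the main counts and medians are given with and without them. Bulk libraries cannot tell fewer cells of a type from less RNA per cell.

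The interferon response genes were largely higher in the CD11b+ cells than in cortex tissue. In A+/Pwt/wt mice 37 of the 38 were higher in CD11b+ cells than in cortex, where 37.7% of the 18541 genes tested were higher, and their median log2 fold change (log2FC) was 3.36 against -0.06 over all genes. The cells came from whole brain by enzymatic dissociation, with RNA from a kit, while cortex was homogenized and extracted with TRIzol. Cell type cannot be told apart from region, isolation and extraction in this comparison. The steepest differences were those of the sensors Ifi204 (log2FC 5.67, SE 0.16) and Ifi207 (5.42, SE 0.25), and of Mx1, a GTPase that blocks influenza viruses (5.07, SE 0.22). C57BL/6 mice are known to carry a defective Mx1 allele, so its RNA says little of its protein. Cmpk2, a mitochondrial nucleotide kinase, was the exception (log2FC 0.07, SE 0.18, adjusted p = 0.714, edgeR).

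Levels between genes were compared as CPM per kilobase of exon. In A+/Pwt/wt CD11b+ cells Ifitm3, which blocks the entry of enveloped viruses, led with 149 CPM per kilobase. Bst2 (tetherin, which holds budding virus on the membrane) followed with 125 and Ifi27l2a with 124 CPM per kilobase. The next gene, Ifit3, was at 33.2 CPM per kilobase, and the list ended with Ifi44 at 1.88 and Oas3 at 1.42 CPM per kilobase. In cortex Ifitm3 and Bst2 also led, with 19.3 and 9.91 CPM per kilobase.

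The interferons themselves were hardly seen. Of 19 interferon genes, 15 had no count in any of the 22 CD11b+ libraries. The highest level of any was 0.941 CPM, of Ifnb1, in an A+/Pwt/wt library. None of them passed the filter on low counts.

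The mean log2 CPM over the 38 genes, used here as a score of the list and given without a test, was 4.33 ± 0.28 (SD, n = 7) in female A-/Pwt/wt microglia. It was 4.99 ± 0.14 (SD, n = 4) in A+/Pwt/wt and 4.80 ± 0.33 (SD, n = 4) in A+/Pki/ki microglia. Without mouse 335 the A+/Pki/ki mean was 4.90, and without mouse 223 the A-/Pwt/wt mean was 4.38. The A- libraries lay between 3.88 (mouse 224) and 4.61 (mouse 225), below the A+/Pwt/wt range of 4.83 to 5.17 and overlapping the A+/Pki/ki range of 4.51 to 5.17. Male WT libraries ran from 4.32 to 4.45 and male KI libraries from 4.00 to 4.33, where the highest KI library (4.33, mouse 84) overlapped the lowest WT library (4.32, mouse 102).

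**Figure D1:**
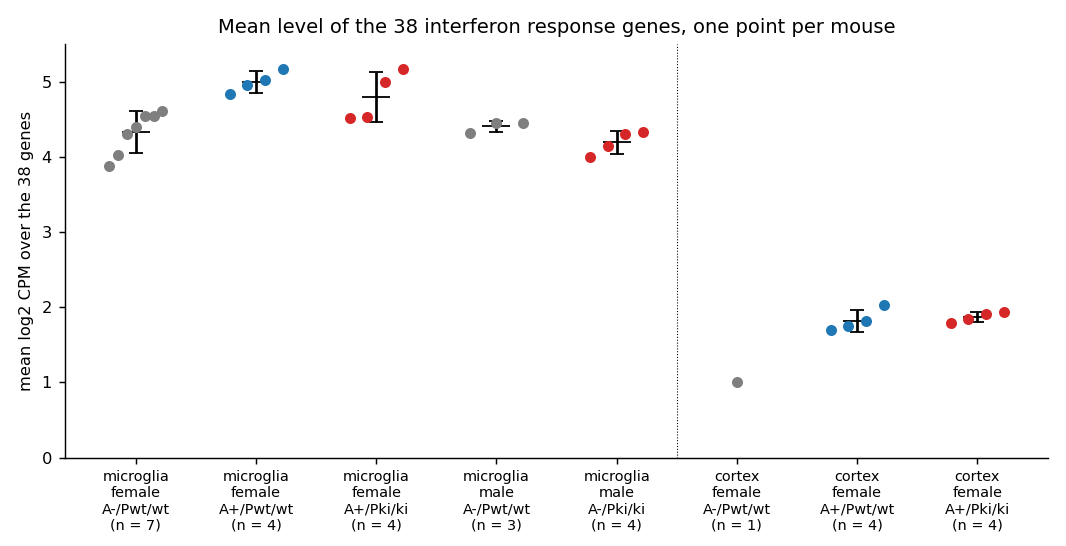
Mean log2 CPM over the 38 genes (y axis) in each library (points), by tissue, sex and genotype (x axis), with mean and SD as bars for groups of more than 1 mouse. CD11b+ libraries (microglia) lie between 3.88 and 5.17 and cortex libraries between 1.01 and 2.03, each tissue scaled on its own.

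The libraries of a group were high or low in many of these genes at once. In the A-/Pwt/wt group mouse 224 was lowest in 23 of the 38 genes and mouse 223 in 11. Among A+/Pki/ki mice, mouse 394 was highest in 29 genes, and mice 335 and 405 were lowest in 22 and 14. Among A+/Pwt/wt mice, mouse 331 was highest in 21 genes. Microglia markers summed to 19300 CPM in mouse 331, 15800 CPM in mouse 223 and 21000 CPM in mouse 335, each the lowest of its group. They summed to 24600 CPM in mouse 224, 30400 CPM in mouse 394 and 30700 CPM in mouse 405. These ranks were not counted over all genes, and the part of other cells in them was not tested.

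Microglia of A+/Pwt/wt mice had higher interferon response gene levels than those of A-/Pwt/wt mice. Of the 38 genes, 8 rose and none fell, where 1.01% of the 17355 genes tested rose. The log2FC was positive for 36 of the 38 with a median of 0.59, against -0.03 over all genes. The ranges of the groups did not overlap for 14 of the 38, all higher in A+, against 2.2% of all genes tested. All A- libraries carry one tag and all A+ libraries the other, so that genotype and whatever the tag marks cannot be told apart.

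Ifit2, whose protein binds foreign RNA, had the lowest adjusted p of the 38. It lay between 13.8 and 28.6 CPM, with a median of 21.2, in the A-/Pwt/wt libraries, and at 46.9, 53.4, 55.1 and 64.1 CPM in the A+/Pwt/wt libraries. All A+ libraries were above all A- libraries, with a 2.67-fold difference (log2FC 1.42, SE 0.18, adjusted p = 0.00171, edgeR). Its neighbour Ifit3 on chromosome 19 lay between 21.3 and 44.9 CPM (median 32.6) in A-/Pwt/wt and at 47.7, 52.4, 56.6 and 75 CPM in A+/Pwt/wt libraries (log2FC 0.81, SE 0.18, adjusted p = 0.0469, edgeR). The ranges lay close but did not overlap. Of the other members of the family, Ifit1 (log2FC 0.33, adjusted p = 0.606) and Ifit3b (0.62, adjusted p = 0.248) did not pass. Ifit3 and Ifit3b are close copies, and reads were counted only where they mapped to 1 place.

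Ifi27l2a, an interferon-induced gene of the mitochondrial ISG12 family on chromosome 12, showed the largest difference. Its levels were 10.3 to 26.7 CPM (median 17.2) in A-/Pwt/wt libraries. The A+/Pwt/wt libraries had 41.4, 51.7, 62.2 and 73.9 CPM. It was 3.22-fold higher (log2FC 1.69, SE 0.25, adjusted p = 0.00544, edgeR), and the ranges did not overlap.

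Among the genes of the OAS family, named for enzymes that make the messenger that switches on RNase L, Oas1a and Oasl2 rose, both on chromosome 5. Oas1a was 11.1 to 21.7 CPM (median 17.4) in A-/Pwt/wt and 29.5, 33.9, 35.3 and 38.6 CPM in A+/Pwt/wt libraries (log2FC 1.01, SE 0.19, adjusted p = 0.0187, edgeR). Oasl2, a relative with ubiquitin-like repeats, was 18.1 to 48.7 CPM (median 34.9) and 67.8, 68, 79.8 and 81.6 CPM (log2FC 1.09, SE 0.20, adjusted p = 0.0189). Both were separated without overlap. Oas2, Oas3 and Oasl1 had log2FC of 0.33, 0.90 and 0.76 and did not pass.

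Of the 6 nucleic acid sensors, Ifi204 and Ifi207 rose, neighbours on chromosome 1 from the family that binds DNA. Ifi204 was 12.2 to 29.5 CPM (median 27.2) in A-/Pwt/wt and 44.5, 51.5, 52.1 and 60.5 CPM in A+/Pwt/wt libraries (log2FC 1.11, SE 0.22, adjusted p = 0.0302, edgeR). Ifi207 was 9.22 to 19.4 CPM (median 12.6) and 23.3, 26.7, 31.4 and 32.3 CPM (log2FC 1.04, SE 0.21, adjusted p = 0.029). Neither gene overlapped between the groups, and as members of a family of like sequence both counts carry the limit of unique mapping. The RNA helicases Ifih1 (MDA5), Ddx58 (RIG-I) and Dhx58 (LGP2) had log2FC of 0.45, 0.19 and 0.52 and did not pass, nor did Zbp1, a sensor of Z-form nucleic acid (1.02, adjusted p = 0.0581, without overlap).

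The last gene that rose, Ifi44, was low in every library. It was 4.22 to 6.94 CPM (median 6.73) in A-/Pwt/wt and 9.16, 9.65, 11.2 and 16 CPM in A+/Pwt/wt libraries (log2FC 0.90, SE 0.20, adjusted p = 0.0474, edgeR). None of the 9 other antiviral effectors passed, though all 9 had a positive log2FC, from 0.17 for the exonuclease gene Isg20 to 1.19 for Mx1 (adjusted p = 0.0802).

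**Figure D2:**
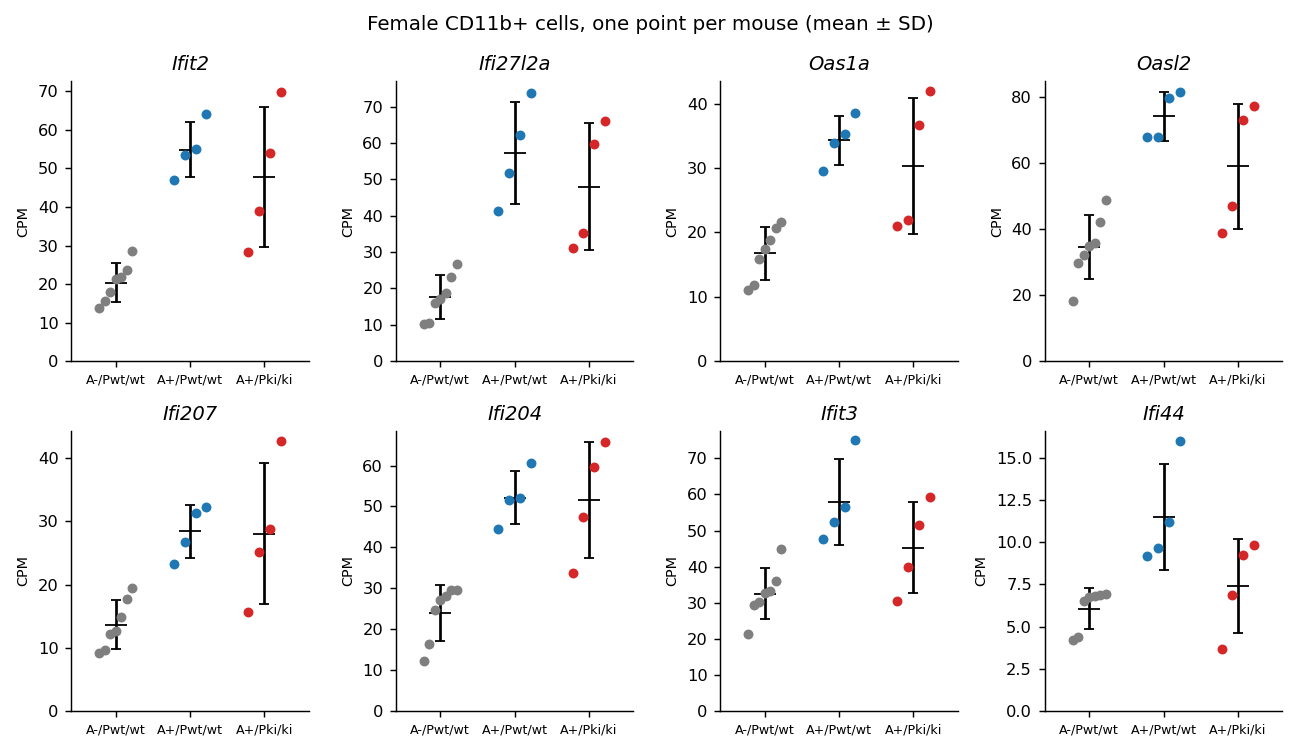
CPM (y axis, from 0) of the 8 genes that rose in A+/Pwt/wt against A-/Pwt/wt, in female CD11b+ libraries by genotype (x axis), 1 point per mouse with mean and SD. The 4 A+/Pwt/wt points lie above all 7 A-/Pwt/wt points in every panel, and the A+/Pki/ki points run from 28.4 to 69.9 CPM for Ifit2.

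None of the receptor and transducer genes passed. Ifnar1 had a mean of 93.8 ± 19.8 CPM (SD, n = 7) in A-/Pwt/wt and 94.1 ± 5.07 CPM (SD, n = 4) in A+/Pwt/wt microglia. Ifnar2 was 86.8 ± 12.5 and 102 ± 11.1 CPM, Irf9 55.9 ± 8.77 and 65.6 ± 2.84 CPM, and Stat2 43.4 ± 10.2 and 60.4 ± 3.14 CPM, none of which passed (adjusted p of 0.303 or more, edgeR). Stat2 did not overlap between the groups, with 29.1 to 56.4 CPM (median 44.2) in A-/Pwt/wt and 57.8 to 64.2 CPM in A+/Pwt/wt libraries. Irf7 lay between 16.8 and 31.4 CPM (median 27.7) in A-/Pwt/wt and at 35.2, 41, 41.1 and 58.7 CPM in A+/Pwt/wt libraries, also without overlap (log2FC 0.72, SE 0.17, adjusted p = 0.074). Exons of Irf7 overlap Phrf1 on the other strand, and the counting did not use strand. Those of Irf9 overlap Rnf31 and those of Ifnar2 overlap Gm21970, both on the same strand.

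The count of 8 depended on single libraries and on the test. It was 8 without A-/Pwt/wt mouse 223 (median log2FC 0.51), 2 without A+/Pwt/wt mouse 367 or mouse 375, 3 without mouse 380, and 5 without A+/Pwt/wt mouse 331 or A-/Pwt/wt mouse 224, 236 or 243, while Ifit2 and Ifi27l2a passed under each of the 18 other settings. Over all genes 175 rose in the main fit, 243 without mouse 223, and 84, 86 and 77 without mouse 367, 375 and 380. Where the count was 5 for these mice, 115 to 198 of all genes rose. Border macrophage markers moved the other way (all 6 negative, median log2FC -1.01, 2 fell, summed 262 to 578 CPM in A-/Pwt/wt and 178 to 221 CPM in A+/Pwt/wt). Without mouse 223 their median was -1.10 and 5 of the 6 fell. The 6 neutrophil markers had a median of -1.13 (-1.32 without mouse 223), none of them called. The 10 neuron markers had a median of 0.02, and without mouse 223 all 10 were positive (median 0.53), none called. Of 7 astrocyte markers 1 rose without mouse 223 and none with it. The part of these cells in the result was not tested. The microglia markers had a median log2FC of -0.10 (-0.18 without mouse 223, with 1 lower). With scaling on microglia and leukocyte genes the median of the 38 genes was 0.61, and 6 of them rose, beside 144 of all genes. Oasl2, Ifit3 and Ifi44 lost the call on that scale and Mx1 gained it.

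A+/Pki/ki microglia were set beside the same A-/Pwt/wt libraries, so the comparison shares its controls with the one above. There 3 of the 38 genes rose, Ifit2, Ifi27l2a and Ifi204, and none fell, where 1.35% of 17446 genes tested rose. The median log2FC was 0.44 against -0.01 over all genes, with 34 of 38 positive. Ranges did not overlap for 2 of the 38, both higher in A+/Pki/ki, against 2.59% of all genes tested.

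Ifit2 was at 28.4, 38.9, 53.9 and 69.9 CPM in the A+/Pki/ki libraries (log2FC 1.25, SE 0.24, adjusted p = 0.0286, edgeR), where the lowest, mouse 335, lay just under the highest A-/Pwt/wt library at 28.6 CPM. Ifi27l2a was at 31, 35.3, 59.7 and 66 CPM (log2FC 1.47, SE 0.29, adjusted p = 0.0296) and Ifi204 at 33.8, 47.3, 59.7 and 65.8 CPM (log2FC 1.13, SE 0.25, adjusted p = 0.0486). Both lay above all A-/Pwt/wt libraries. Set side by side, the log2FC of these 3 genes against A-/Pwt/wt were 1.42, 1.69 and 1.11 in A+/Pwt/wt and 1.25, 1.47 and 1.13 in A+/Pki/ki. Without mouse 335 the count was 10, and without both mouse 335 and A-/Pwt/wt mouse 223 it was 8. Calls over all genes grew too, from 236 higher and 50 lower to 706 and 391, and to 798 and 466 without both. The count of the 38 was 0 without A-/Pwt/wt mouse 224, 243 or 245 or A+/Pki/ki mouse 244, 394 or 405, where 57 to 185 of all genes rose. It was 1 without A-/Pwt/wt mouse 225 or 236, and 2 without mouse 223 or 242. Border macrophage markers were lower here too (all 6 negative, median log2FC -0.81, 1 fell), and the medians of the neutrophil (1.32), neuron (-0.84) and endothelial markers (-0.56) came from genes of which none passed. Without mouse 335 these 4 medians were -0.78, 0.17, -2.03 and -0.69. There 3 of the 6 border macrophage markers and 1 of the 7 endothelial markers fell, and none of the neutrophil or neuron markers passed. The part of these cells in the result was not tested. Scaling on microglia and leukocyte genes also left 0 of the 38, beside 107 genes higher and 18 lower in all. The median log2FC was then 0.22 for the 38 genes and -0.26 for all genes.

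The variant itself was compared within A+ mice. In CD11b+ microglia of A+/Pki/ki against A+/Pwt/wt mice none of the 38 genes passed (edgeR, lowest adjusted p 0.853), and 0% of the 17039 genes tested did. At an unadjusted p under 0.05 there was 1 of the 38 genes, against 3.37% of all genes. DESeq2 and limma also called none of the 38, while over all genes DESeq2 called 7 and limma 0. The median log2FC was -0.17, with 28 of 38 negative, against 0.00 over all genes, and it ran from -0.29 without mouse 394 (35 of 38 negative) to 0.00 without mouse 335 (19 of 38 negative). With scaling on microglia and leukocyte genes it was -0.40, against -0.18 over all genes. No gene of the 38 was free of overlap in either direction, while 0.916% of all genes lay lower in A+/Pki/ki without overlap and 1.41% higher.

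The 3 genes with the lowest unadjusted p are given as values only. Ifit1, which binds RNA that lacks the cap methylation of the host, was at 7.17, 12.3, 14.9 and 16.3 CPM in A+/Pki/ki and 15.9, 17.5, 18.5 and 27.9 CPM in A+/Pwt/wt libraries (log2FC -0.67, SE 0.28, unadjusted p = 0.0445, adjusted p = 0.853, edgeR). Rsad2 (viperin, which makes a chain-terminating nucleotide) was at 9.72, 15.5, 16.2 and 16.3 against 16.2, 17.3, 20.3 and 27.1 CPM (log2FC -0.50, SE 0.23, unadjusted p = 0.0579, adjusted p = 0.853, edgeR). In both genes mouse 405 was the lowest A+/Pki/ki library and mouse 331 the highest A+/Pwt/wt library. Irf1, a transcription factor that interferon gamma also induces, was at 51.3, 55.4, 75.8 and 153 CPM against 48.3, 48.6, 49.7 and 58.7 CPM (log2FC 0.70, SE 0.33, unadjusted p = 0.0661, adjusted p = 0.853, edgeR), with the value of 153 CPM from mouse 394. Exons of Irf1 overlap Gm17334 on the other strand.

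The receptor and its transducers had these levels. Ifnar1 was 89.9 ± 13.5 CPM (SD, n = 4) in A+/Pki/ki and 94.1 ± 5.07 CPM in A+/Pwt/wt (log2FC -0.08, SE 0.12), and Ifnar2 was 108 ± 15.4 and 102 ± 11.1 CPM (log2FC 0.07, SE 0.13). Stat2 (log2FC -0.01, SE 0.13), Irf9 (0.11, SE 0.13) and Irf7 (-0.33, SE 0.24) did not pass either. By role the median log2FC was -0.43 for the OAS family and -0.38 for the IFIT family, with all members of both families negative, and -0.04 for the sensors. Without mouse 335 these medians were -0.30, -0.32 and 0.13. The 6 neutrophil markers had a median log2FC of 2.48 and the 10 neuron markers of -0.85 in the same comparison, none of them called. Without mouse 335 these were 1.19 and -2.0, and their part was not tested.

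In cortex of A+/Pki/ki against A+/Pwt/wt mice 37 of the 38 genes could be tested, since Oas3 (2 to 25 counts per cortex library) missed the count filter. None passed in edgeR (all adjusted p = 1), DESeq2 or limma. Of the 18640 genes tested 0% passed in edgeR, while over all genes DESeq2 called 11 and limma 0. At an unadjusted p under 0.05 there was 1 of the 37 genes against 2.76% of all genes. The median log2FC was 0.06 against 0.00 over all genes, with 23 positive and 14 negative.

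The 1 gene was Irf1. It was at 7.15, 7.15, 7.66 and 8.35 CPM in A+/Pki/ki and 5.74, 5.9, 6.22 and 6.92 CPM in A+/Pwt/wt cortex, without overlap, as were 1.03% of all genes in that direction (log2FC 0.29, SE 0.11, unadjusted p = 0.0201, adjusted p = 1, edgeR). Ifih1 was at 5.99 to 7.95 against 5.06 to 7.39 CPM (log2FC 0.25, SE 0.15, unadjusted p = 0.11, adjusted p = 1, edgeR), and Irf7 at 2.94 to 5.63 against 2.51 to 4.32 CPM (log2FC 0.34, SE 0.22, unadjusted p = 0.141, adjusted p = 1). Both overlapped. Mouse 329 was highest of the A+/Pwt/wt cortex group in 21 of the 38 genes, a count that was not made over all genes.

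The single A-/Pwt/wt cortex library allowed no test. Its list score was 1.01, against 1.69 to 2.03 in A+/Pwt/wt and 1.79 to 1.93 in A+/Pki/ki cortex. Oasl2 was at 3.45 CPM in it and at 7 to 12.2 CPM in the A+/Pwt/wt libraries, and Ifi27l2a at 0.599 against 1.68 to 3.02 CPM. Its microglia markers summed to 509 CPM, against 923 to 1070 CPM in A+/Pwt/wt cortex.

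**Figure D3:**
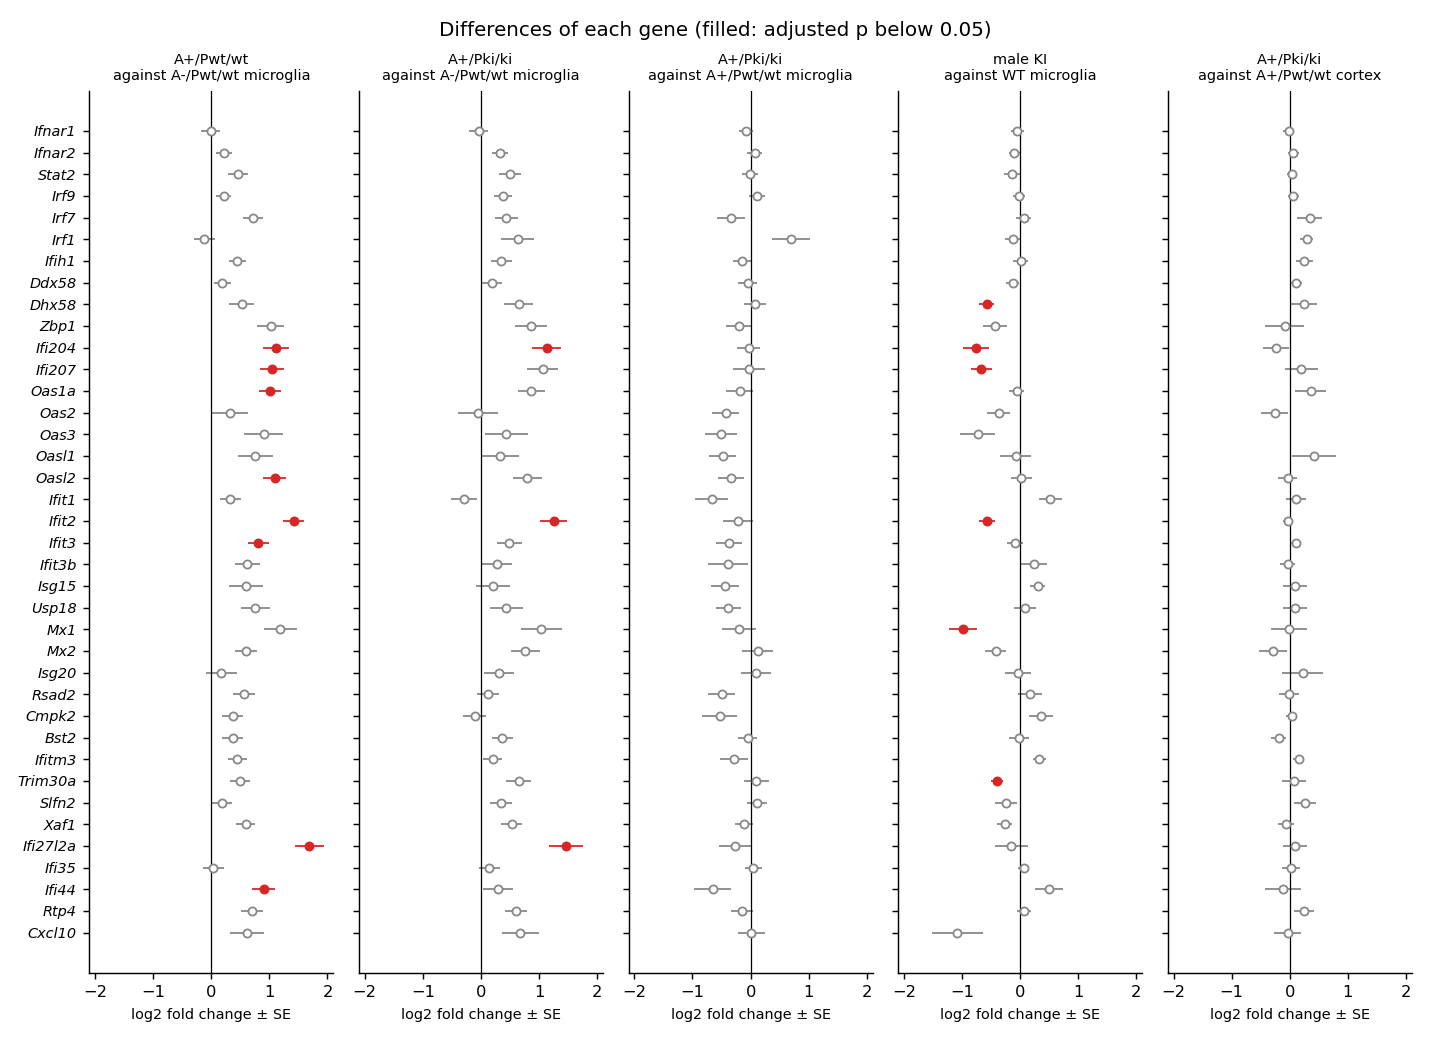
Log2FC with SE (x axis) of each of the 38 genes (y axis, ordered by role) in 5 comparisons, each scaled on its own libraries, with filled points where the adjusted p was under 0.05. Filled points are 8 and 3 in the first 2 panels, all higher, and 6 in the male panel, all lower with this scaling.

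In male mice without the transgenes KI microglia had lower levels of 6 of the 38 genes than WT microglia, and none rose. Of the 16373 genes tested 5.26% fell and 11.1% rose. The 6 were the sensors Dhx58, Ifi204 and Ifi207, Ifit2, Mx1 and Trim30a, and the median of the 38 was -0.09 against 0.00 over all genes, with 25 negative and 13 positive. Ranges did not overlap for 8 of the 38 lower in KI (17.3% of all genes) and for 1 higher (14.4% of all genes). Scaling on microglia and leukocyte genes ended all 6 calls, as given below.

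Dhx58 (LGP2), which tunes the RNA helicase sensors, was at 13.3, 15.8, 16.5 and 17.6 CPM in KI and 23.2, 24.1 and 25.5 CPM in WT libraries. It was lower in each KI library than in each WT library (log2FC -0.58, SE 0.13, adjusted p = 0.0154, edgeR), and its exons overlap Dhx58os on the other strand. Ifi204 was at 9.75, 17.5, 19.5 and 19.6 CPM against 26.1, 28.1 and 32 CPM (log2FC -0.76, SE 0.22, adjusted p = 0.0418). Ifi207 was at 7.14, 8.42, 9.24 and 11.5 CPM against 12, 15.8 and 16.4 CPM (log2FC -0.67, SE 0.18, adjusted p = 0.0368). The 3 other sensors, Zbp1 (-0.43), Ddx58 (-0.13) and Ifih1 (0.01), did not pass.

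Among the effectors Mx1 showed the largest fall. It was at 4.47, 8.78, 10 and 10 CPM in KI and 15.4, 16.6 and 18.5 CPM in WT libraries (log2FC -0.98, SE 0.24, adjusted p = 0.0261, edgeR), with the lowest value in mouse 139. Ifit2 was at 13.3, 13.8, 17 and 17.9 CPM against 21.2, 24 and 25.6 CPM (log2FC -0.57, SE 0.14, adjusted p = 0.0266). Trim30a, which dampens Toll-like receptor signalling, was at 53.7, 55.8, 64.2 and 71.5 CPM against 82.2, 83.3 and 83.4 CPM (log2FC -0.40, SE 0.10, adjusted p = 0.03). No range overlapped. The chemokine gene Cxcl10 had the lowest log2FC of the 38 (-1.08, SE 0.44, adjusted p = 0.126) and wide scatter, with 1.74 to 9.06 CPM in KI and 7.32 to 16.3 CPM in WT libraries.

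**Figure D4:**
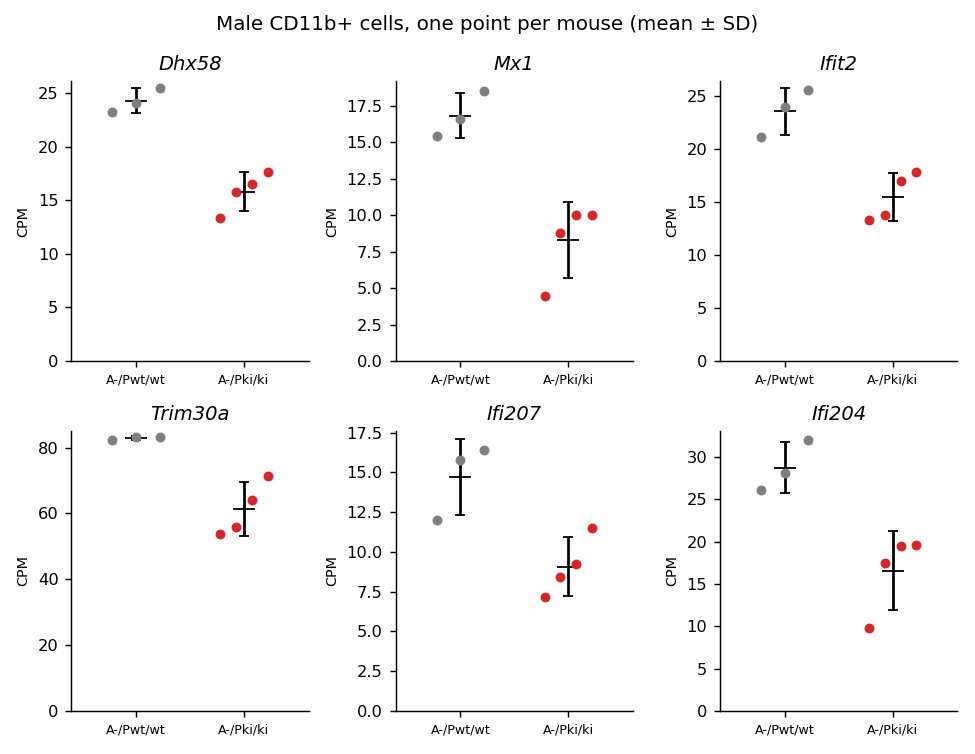
CPM (y axis, from 0) of the 6 genes that fell with TMM scaling, in male CD11b+ libraries of WT (A-/Pwt/wt, 3 mice) and KI (A-/Pki/ki, 4 mice), 1 point per mouse with mean and SD. All KI points lie below all WT points, with the gap narrowest for Ifi207, at 11.5 against 12 CPM.

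Other members of the same families did not pass. Ifit1 was at 9.84, 15.2, 16.7 and 18.3 CPM in KI and 10.5, 10.7 and 11.1 CPM in WT libraries (log2FC 0.52, SE 0.20, adjusted p = 0.111, edgeR). Ifitm3 (0.33, adjusted p = 0.0786), Ifi44 (0.49), Cmpk2 (0.36) and Isg15, a ubiquitin-like modifier (0.30), had positive log2FC and did not pass. Ifnar1 (-0.05), Ifnar2 (-0.10), Stat2 (-0.14), Irf9 (-0.02) and Irf7 (0.06) did not pass, with mean levels in WT of 106 ± 6.94, 105 ± 2.18, 54.5 ± 2.57, 58.2 ± 4.58 and 28 ± 0.639 CPM (SD, n = 3). In KI these were 99.4 ± 12.1, 95.1 ± 8.16, 48.2 ± 8.37, 55.9 ± 7.6 and 28.5 ± 4.27 CPM (SD, n = 4).

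Markers of other cells moved in this comparison. All 10 neuron markers rose (median log2FC 2.12, summed 609 to 1350 CPM in KI and 190 to 270 CPM in WT), as did all 7 astrocyte markers (median 1.14), 3 of 6 oligodendrocyte markers and 1 of 7 endothelial markers. All 13 microglia markers had a negative log2FC (median -0.33, 1 fell). With libraries scaled on 20 microglia and leukocyte genes the median over all genes was 0.40 and that of the 38 genes 0.33. None of the 38 then fell, and 2 rose, Isg15 (log2FC 0.69, adjusted p = 0.0358, edgeR) and Ifitm3 (0.75, adjusted p = 0.0459). Over all genes 2730 rose and 6 fell on that scale, against 1824 and 861 with TMM scaling. The 6 members that fell with TMM scaling kept a negative log2FC, from -0.01 for Trim30a to -0.61 for Mx1, while none of them passed. With TMM scaling the count was 0 without any 1 of the WT mice 94, 101 and 102, 2 without KI mouse 136, 3 without KI mouse 139, and 3 higher and 7 lower without KI mouse 104. Over all genes 3286 rose and 2153 fell without mouse 104, 1068 and 285 without mouse 139, and 1170 and 601 without mouse 136. Without 1 of the WT mice 783 to 1122 of all genes rose and 98 to 114 fell.

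**Figure D5:**
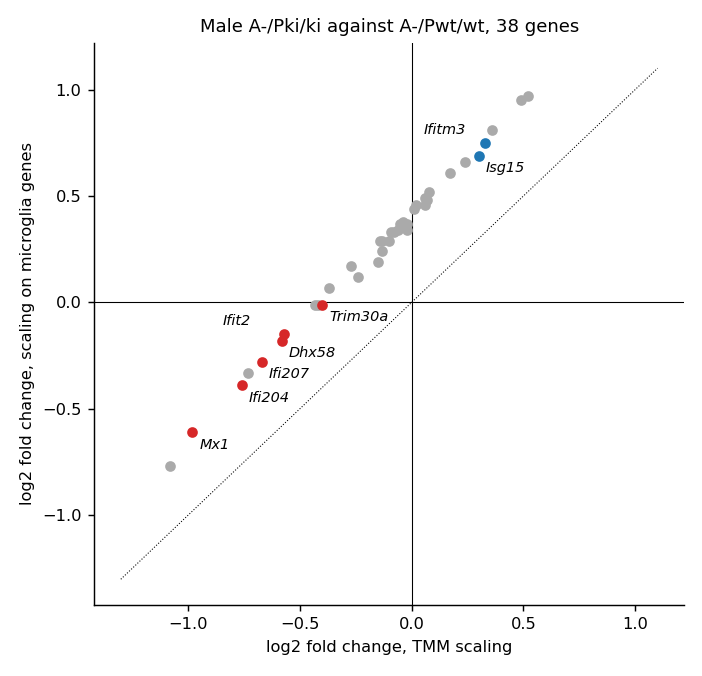
Log2FC of the 38 genes in male KI against WT microglia with TMM scaling (x axis) and with scaling on 20 microglia and leukocyte genes (y axis), with a dotted line of equal values. Red points fell with TMM scaling (6 genes) and blue points rose with the other scaling (2 genes), and all points lie above the dotted line.

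The male KI effect was compared with the variant's effect in A+ females as the difference of the log2FC values, with sex, tag and transgene differing together. None of the 38 genes passed (edgeR, lowest adjusted p 0.143, median difference 0.04), as for 0% of the 17619 genes tested. At an unadjusted p under 0.05 there were 7 of the 38, against 26.5% of all genes. DESeq2 called none of the 38, beside 818 genes higher and 367 lower in all. Ifit1 had the lowest p (difference 1.21, SE 0.38, unadjusted p = 0.00641, adjusted p = 0.143, edgeR), with a log2FC of 0.52 in males and -0.67 in A+ females. Without A+/Pki/ki mouse 335, 7 of the 38 passed, Ifit1 higher in males and 6 lower (Irf1, Dhx58, Ifi204, Ifi207, Mx1 and Trim30a), beside 3474 genes higher and 2725 lower in all. With scaling on microglia and leukocyte genes none passed, and the median difference was 0.62 for the 38 genes and 0.57 for all genes.

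Further genes of the pathway and of the response were followed in lists written for this purpose. Of 53 other parts of the pathway (interferons, kinases and transducers, sensing adaptors, negative regulators), 33 passed the count filter in microglia. In A+/Pwt/wt against A-/Pwt/wt none of them passed (5 at an unadjusted p under 0.05, against 10.1% of all genes), with a median log2FC of 0.01. Nor did any pass in A+/Pki/ki against A-/Pwt/wt (median 0.22, and -0.06 with scaling on microglia and leukocyte genes). In A+/Pki/ki against A+/Pwt/wt microglia none passed, with 29 positive and 4 negative (median 0.16, and -0.04 with that scaling). In cortex none of the 32 tested passed (median -0.03). In male KI against WT 6 of the 33 fell and 1 rose with TMM scaling (median -0.24), against 5.26% and 11.1% of all genes. On the scaling by microglia and leukocyte genes none of the 33 fell and only Ptpn11 rose (median 0.12). There 2730 of all genes rose and 6 fell. With TMM scaling the kinase gene Tyk2, which sits on Ifnar1, fell (log2FC -0.45, SE 0.10, adjusted p = 0.0166, edgeR), as did the DNA receptor gene Tlr9 (-0.77, SE 0.11, adjusted p = 0.00394). The feedback inhibitor gene Socs3 (-0.55), Aim2 (-0.51), Tlr3 (-0.42) and Samhd1 (-0.32) fell too, and the phosphatase gene Ptpn11 rose (0.70, SE 0.20, adjusted p = 0.0457).

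Of 82 further interferon-induced genes outside the 38, 4 rose in A+/Pwt/wt against A-/Pwt/wt microglia and none fell, where 1.01% of all genes rose. They were Lgals3bp (log2FC 1.52, SE 0.18, adjusted p = 0.000839, edgeR), Slfn9 (2.12, adjusted p = 0.00402), Cd274, which encodes PD-L1 (1.07, adjusted p = 0.0309), and Phf11b (0.91, adjusted p = 0.0432). The median of the list was 0.25. In A+/Pki/ki against the same controls 3 rose, where 1.35% of all genes did, with log2FC of 1.51 for Lgals3bp, 3.05 for Slfn9 and 1.48 for Cd274. In males 6 of 81 fell and 1 rose with TMM scaling (median -0.20), close to the 5.26% of all genes that fell and below the 11.1% that rose. On the other scaling none of the 81 fell and Ly6a rose (median 0.20), where 2730 of all genes rose and 6 fell. With TMM scaling the log2FC was -0.61 for Ms4a6b (adjusted p = 0.0142, edgeR), -0.57 for Cd274 (adjusted p = 0.0182) and -0.52 for Sp110 (adjusted p = 0.0209), and 0.78 for Ly6a (adjusted p = 0.0209). In A+/Pki/ki against A+/Pwt/wt none of the 82 in microglia (2 at an unadjusted p under 0.05) or of the 74 tested in cortex (3) passed in edgeR.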

How the data were processed

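Per the labels and methods, the authors trimmed the paired-end reads with Trimmomatic 0.39, mapped them with STAR 2.7.9a (GRCm38, Gencode genes) and kept gene counts from uniquely mapped reads, with no use of strand. The deposited counts cover 31 libraries, each from 1 mouse, so p-values measure the spread between mice. A second deposited set, on a variance-stabilized log2 scale, served here for an alternative test with limma 3.58.1 alone. No column of the authors' comparisons was used.

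A gene entered a comparison when 10 or more counts were present in 3 or more of its libraries. After TMM scaling, the libraries compared were fitted over all genes in edgeR 4.0.16 (R 4.3.3) and tested two-sided by quasi-likelihood, with a Benjamini-Hochberg adjusted p under 0.05 as threshold and the SE taken from the F statistic. CPM values were scaled by TMM within the 22 CD11b+ and within the 9 cortex libraries. Alternatives were DESeq2 1.42.0, other scalings and filters, all groups together, and each library left out. The test was checked on artificial counts.

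The members and lists were chosen with earlier results of these data known. In comparisons of genotypes within a tissue, values or ranges of the libraries were given for the genes that passed, or else for the 3 with the lowest p. Levels or log2FC of Ifnar1, Ifnar2, Stat2, Irf9 and Irf7 were given for CD11b+ cells. These cover A+/Pwt/wt against A-/Pwt/wt, A+/Pki/ki against A+/Pwt/wt, and male KI against WT. Other genes are named from their role. Exon lengths came from Gencode M21 (GRCm38), in which 28 of the 38 genes overlap no other gene's exons. Mouse number 236 is given for both an A-/Pwt/wt CD11b+ library and an A+/Pwt/wt cortex library, and both labels were used as given. Total counts set the precision of low genes such as Oas3 and Ifi44.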

Additional observations from a re-analysis of the deposited data

Results flagged for a closer look

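Within groups of 4 or 7 mice, 7 of 126 sets of log2 CPM values (of the list score and of the genes whose libraries are described) held 1 library far from the others, and chance gives about 1 in 20. In A+/Pki/ki microglia Ifnar2 was 6.41 in mouse 335 against 6.85 to 6.86 in the others, and Rsad2 was 3.30 in mouse 405 against 3.97 to 4.03. In A+/Pwt/wt microglia Irf1 was 5.88 in mouse 380 against 5.60 to 5.64. In male KI microglia mouse 139 was low in Ifi204 (3.30 against 4.14 to 4.30) and in Mx1 (2.19 against 3.15 to 3.34). In cortex Dhx58 was 0.64 in A+/Pki/ki mouse 216 against 0.99 to 1.05, and Oasl2 was 3.61 in A+/Pwt/wt mouse 329 against 2.82 to 2.92.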

How the results depend on the processing

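The count of genes that passed was the most dependent value. For A+/Pwt/wt against A-/Pwt/wt it was 8, with 13 by the DESeq2 test and 6 with scaling on microglia genes. It was 5 with all groups fitted together and 2 to 8 with 1 library left out. Over all genes 175 rose there, with 371 by DESeq2, 144 on the microglia scaling and 185 with all groups. For A+/Pki/ki against A-/Pwt/wt the count of the 38 was 3, with 6 by DESeq2, 5 with all groups, 0 with scaling on microglia genes, 0 to 10 with 1 library left out and 8 without mice 223 and 335, a choice made after seeing the data. Over all genes 236 rose there, with 607 by DESeq2, 395 with all groups, 107 on the microglia scaling and 798 without mice 223 and 335. For male KI against WT the count of the 38 was 6 lower, with 2 higher on the microglia scaling and 0 to 10 with 1 library left out. Over all genes 1824 rose and 861 fell there, with 2730 and 6 on the microglia scaling. For the difference of the KI effects the count of the 38 was 0, and 0 to 7 with 1 library left out. The counts of 0 in A+/Pki/ki against A+/Pwt/wt held in every setting run, in microglia and in cortex, and 37 of 38 held for microglia against cortex. Of the single genes that passed, none changed sign in 279 refits, while 105 refits lost the call. Where a library was left out of a group of 3 or 4, fewer mice carried the test. No paired analysis was possible because the groups share no more than 1 mouse number.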
